A study of Mus musculus with 5 samples.

Results

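The genes described here encode the machinery of oxidative phosphorylation, namely the subunits of the respiratory chain (complexes I to IV) and of the ATP synthase (complex V). They were taken by symbol: protein-coding genes starting with Nduf, Uqcr, Cox4, Cox5, Cox6, Cox7, Cox8 or Atp5, together with Sdha, Sdhb, Sdhc, Sdhd, Cyc1 and the 13 protein-coding genes of the mitochondrial genome. The rule found 108 gene entries among 55471, of which 95 lie in the nuclear genome and 13 in the mitochondrial genome. One symbol, Atp5o, has 2 entries, of which one held no count. Expression was measured in colon of male C57BL/6 mice, 11 weeks old, that had received the colitis-inducing hapten TNBS (trinitrobenzene sulfonic acid) 3 days earlier. Vehicle was given in 2 libraries and propyzamide in 3, and TNBS is common to all 5. Propyzamide is a weed killer that stops plant microtubules from assembling. Each library came from a frozen piece of colon; its segment, the dose and whether the samples of a group were separate animals were not stated in the labels. The p-values therefore compare groups against a spread between samples that may be technical.

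Electrons from NADH enter the chain at complex I (NADH dehydrogenase) and those from succinate at complex II (succinate dehydrogenase, which is also an enzyme of the citric acid cycle). They pass through ubiquinone, complex III and cytochrome c to complex IV (cytochrome c oxidase), and the proton gradient built along the way drives complex V. Complex II is built from nuclear genes alone, whereas the other complexes combine nuclear-coded proteins with a few coded by mitochondrial DNA, which is transcribed inside the organelle as long precursors from both strands. Mature colonocytes oxidise butyrate in this way, and smooth muscle of the colon wall also relies on it.

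The libraries held 1573592 to 2706840 estimated counts, of which loci resembling ribosomal RNA took 26.3% to 43.6% and mitochondrial genes 9.999% to 21.6%. TMM scaling factors, which bring most genes to a common level between libraries, were 1.61 and 0.797 in vehicle and 1.096, 0.806 and 0.8801 in propyzamide, so vehicle replicate 1 was scaled the most. Genes for odorant and pheromone receptors, taken as a measure of background, held on average 0.9096 and 0.568 in vehicle and 0.0585, 0.465 and 0.139 counts per kilobase in propyzamide. Vehicle and propyzamide libraries had 1 second index sequence each, with 0 shared, so an index batch and the treatment cannot be told apart. Epithelial markers (Epcam, Cdh1, Krt8, Krt18 and Krt19) summed to 3315 to 4041 CPM (counts scaled to a common library size, with TMM) in vehicle and 3891 to 5249 CPM in propyzamide, so epithelial RNA was present in every library. Of these 5 markers, 2 had a higher fitted level in propyzamide (median log2 fold change -0.03), and only Krt8 was higher without overlap. Of 10 smooth muscle markers, 10 had a higher fitted level in propyzamide (median log2 fold change 2.17) and 9 an unadjusted p under 0.05. Of these markers edgeR called 0 after adjustment, with TMM or upper-quartile factors, DESeq2 called 6, limma on log2(TPM + 1) called 5 and edgeR without scaling factors called 6, all higher. Their sum was 534 to 3581 CPM in vehicle and 6110.2 to 10283 CPM in propyzamide. Of 10 markers of absorptive colonocytes, 2 rose (Slc9a3 and Guca2a), and the sum was 3177 to 4628 CPM in vehicle and 10036 to 12157 CPM in propyzamide. The list did not move as 1 block: Guca2a, Car1 and Ceacam1 made up most of the difference in the sum, Vil1 had a log2 fold change of 0.18, and 3 markers had negative values, Cdhr5 (-0.47, lower in every propyzamide library), Car4 (-0.57) and Aqp8 (-0.13), none of which passed the test. Of 6 adipocyte markers, 3 could be tested and 2 rose (Cidec and Cfd), with a sum of 9.93 to 18.2 CPM in vehicle and 47.6 to 303 CPM in propyzamide, and the brown fat marker Ucp1 had no count in any library. Of 7 goblet cell markers, 1 had a positive change (median log2 fold change -1.15), and edgeR with TMM called 0. Their sum was 8604 and 3075 CPM in vehicle and 6687, 681 and 4441 CPM in propyzamide, lowest in propyzamide replicate 2. The 5 T and B cell markers, too scarce to test, summed to 26.1 and 6.81 CPM in vehicle and 0.34, 1.54 and 0 CPM in propyzamide. Of 6 fibroblast markers, 6 had positive changes (median 0.65) and 0 were called. The part of these cell types and of the background in the members' differences was not tested, and in bulk tissue fewer cells of a type cannot be told apart from less RNA per cell.

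Nuclear-coded members stood higher in propyzamide in every complex after scaling, while the groups overlapped for all mitochondrial-coded members. Summed over 95 entries, the nuclear members held 9541 and 9449 CPM in vehicle and 14955, 16247 and 14904 CPM in propyzamide. Both vehicle libraries lay below all 3 propyzamide libraries, and the ratio of the group means was 1.62. By complex the ratio was 1.59 for complex I, 1.41 for II, 1.71 for III, 1.63 for IV and 1.63 for V. Complexes I, IV and V kept nearly the same mean share of the nuclear members' counts. Complex I took 25.3% and 26.5% in vehicle and 24.7%, 26.3% and 25.2% in propyzamide. For complex IV (26.1% and 30.9%) and complex V (30.4% and 25.2%) the vehicle libraries lay on either side of the propyzamide libraries. The share of complex III, 13.1% and 13.3% in vehicle and 14.3%, 13.7% and 13.9% in propyzamide, was slightly higher in every propyzamide library. Complex II, the smallest, had the largest relative departure in its mean share, at 4.26% and 3.31% for the vehicle libraries against 3.41%, 2.707% and 3.86% for propyzamide, a ratio of means of 0.879, and the groups overlapped. In summed TPM, the shares of complexes I and IV were lower in every propyzamide library, and that of complex V was higher by a narrow margin. Of the 108 entries, 100 passed the filter on low counts and were tested with edgeR over 12024 genes. Their median log2 fold change (propyzamide minus vehicle) was 0.58, against -0.02 over all genes tested, and 93 of 100 values were positive, against 49.1% of all genes. After adjustment over all genes, 1 member rose (Uqcrq) and 0 fell, beside 0.69% and 1.21% of all genes, and 30 of 100 members had an unadjusted p under 0.05, all with positive changes, against 18.2% of all genes in either direction. DESeq2 called 9 members higher and 0 lower (Atp5g3, Atp5k, Atp5l, Atp5mpl, Ndufa2, Ndufa4, Ndufa5, Uqcr11 and Uqcrq), where it called 2.16% of all genes higher and 2.54% lower. With limma on log2(TPM + 1) 0 members were called, where 0.549% of all genes were called higher and 3.53% lower.

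Without overlap between the groups in scaled CPM, 56 members lay higher in propyzamide and 1, Atp5s, lower, where 16.7% and 20.8% of all genes did so. All 56 are nuclear-coded, out of 87 tested. This separation rests on the scaling: without scaling factors 19 nuclear members were separated upwards (7.29% of all genes), and in the authors' TPM 14 were (6.1% of all genes). As unscaled shares of a library, nuclear members held 1.47% and 0.737% in vehicle against 1.63%, 1.296% and 1.301% in propyzamide, and vehicle replicate 1 stood inside the range of the propyzamide libraries. A change of scaling factors shifts every gene by nearly the same amount, so the medians of all genes and of the nuclear members moved together by construction. Without factors the median of all genes was -0.38 and that of the nuclear members 0.22, on upper-quartile factors -0.14 and 0.48, and with limma on log2(TPM + 1) -0.39 and 0.27. Relative to the median of all genes, the nuclear members stood 0.63 higher on TMM scaling and 0.61, 0.63 and 0.66 higher on these 3 scales. Over all genes, the split of calls was 83 higher and 146 lower with TMM, 87 and 484 without factors and 79 and 235 with upper-quartile factors. With limma on log2(TPM + 1), where the unit, the scaling and the test all differ, it was 66 and 424. The counts by complex that follow are on TMM scaling. They stand beside 16.7% of all genes higher without overlap and 18.2% with an unadjusted p under 0.05 in either direction.

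**Figure D1:**
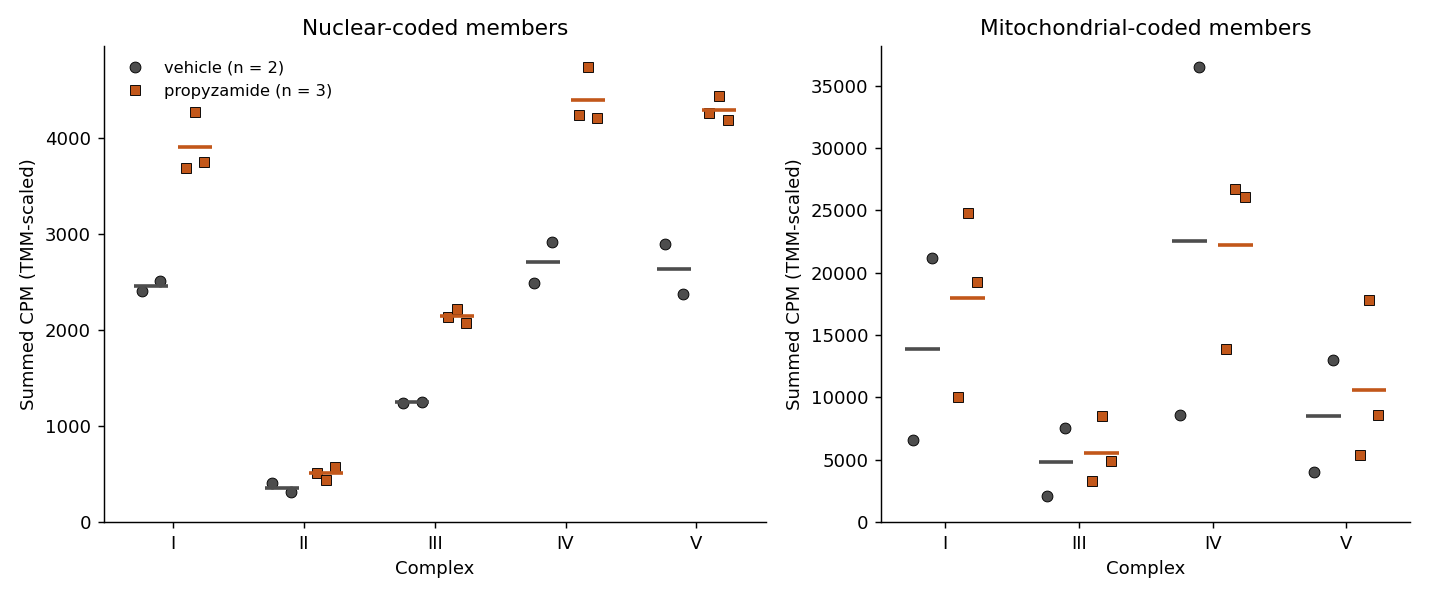
Summed TMM-scaled CPM of the members of each complex in every library, nuclear-coded on the left and mitochondrial-coded on the right, with horizontal lines at the group means. The nuclear sums of all 5 complexes are higher in each propyzamide library than in both vehicle libraries, and the mitochondrial sums overlap, with vehicle replicate 1 lowest and vehicle replicate 2 at 36460.2 CPM for complex IV.

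Complex I is the largest of the complexes and combines a catalytic core, part of it coded by mitochondrial DNA, with many accessory subunits that stabilise it. Its 36 nuclear-coded subunits were all tested: 35 changes were positive, 24 lay higher without overlap and 0 passed the adjusted test, with a median log2 fold change of 0.63. At an unadjusted p under 0.05 there were 12, and all 12 were accessory subunits. The subunit with the smallest p was Ndufa2, at 67 and 116 CPM in vehicle and 233, 293 and 241 CPM in propyzamide (log2 fold change 1.48, SE 0.39, adjusted p = 0.0629). Ndufa5, a subunit of the matrix arm, was measured at 50.04 and 66.4 CPM in vehicle and 124, 184 and 141 CPM in propyzamide, with a log2 fold change of 1.36 (adjusted p = 0.0689). For Ndufs5, in the intermembrane space, the values were 35.6 and 40.9 CPM in vehicle and 80.2, 84.7 and 89.5 CPM in propyzamide (1.15 on the log2 scale, adjusted p = 0.0969). In these 3 genes all propyzamide libraries lay above both vehicle libraries, with the widest gap between vehicle replicates in Ndufa2. Per transcript length, the most abundant subunits were Ndufa1 with 757 and 469 TPM in vehicle and 684, 811 and 443 TPM in propyzamide, Ndufa3 with 588 and 383 TPM in vehicle and 649, 489 and 392 TPM in propyzamide and Ndufa6 with 534 and 404 TPM in vehicle and 478, 554 and 251 TPM in propyzamide. Their differences in the fit on counts were smaller, with log2 fold changes of 0.54, 0.44 and 0.21. In TPM the groups of all 3 overlapped, and propyzamide replicate 3 was the lowest library for Ndufa1 and Ndufa6. Ndufa10 was the single nuclear subunit of complex I with a negative value (-0.41, SE 0.39), and its groups overlapped. Ndufa10 was singled out after its value was seen.

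The 8 Ndufaf genes fit the symbol rule but encode factors that build complex I and leave it. All 8 changes were positive with a median of 0.51, 3 lay higher without overlap, and 0 had an unadjusted p under 0.05. They were expressed at low levels: together they held 83.5 and 67.5 CPM in vehicle and 102, 125 and 102 CPM in propyzamide. The 3 of smallest p were Ndufaf8 (21.9 and 24.97 CPM in vehicle and 29.2, 39.01 and 31.7 CPM in propyzamide), Ndufaf2 (7.86 and 7.38 CPM in vehicle and 10.5, 14.9 and 12.2 CPM in propyzamide) and Ndufaf4 (20.3 and 10.2 CPM in vehicle and 24.1, 35.9 and 9.74 CPM in propyzamide). Ndufaf4 shows how wide the spread was, since propyzamide replicate 3 lay at the level of the lower vehicle library.

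Complex II has 4 subunits, a flavoprotein (Sdha), an iron-sulfur protein (Sdhb) and a pair of membrane anchors (Sdhc and Sdhd). Sdhc was measured at 49.6 and 47.7 CPM in vehicle and 105, 72.4 and 98.6 CPM in propyzamide and Sdha at 139 and 101 CPM in vehicle and 183, 173 and 217 CPM in propyzamide, and in both genes the propyzamide libraries lay above the vehicle libraries (log2 fold changes 0.92 and 0.67, adjusted p = 0.184 and 0.339). Sdhb, at 126 and 106 CPM in vehicle and 133, 122 and 139 CPM in propyzamide, and Sdhd, at 90.99 and 57.9 CPM in vehicle and 89.04, 72.4 and 119.9 CPM in propyzamide, overlapped between the groups, with changes of 0.18 and 0.33. None of the 4 passed the adjusted test, and 1 (Sdhc) had an unadjusted p under 0.05.

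Complex III carried the 1 member that rose. Uqcrq, a small subunit near the ubiquinone site, is coded at chr11:53427922-53430831 of GRCm38, on the minus strand. It was measured at 102 and 134 CPM in vehicle and 358, 368 and 353 CPM in propyzamide (log2 fold change 1.61, SE 0.37, adjusted p = 0.0478), and the propyzamide libraries lay in a narrow band above both vehicle libraries. The call is close to the threshold: it held in 6 of 18 other fits and was lost in each of the 5 fits that left out a library, with adjusted p-values from 0.000567 to 0.425 and positive log2 fold changes from 1.22 to 1.87 throughout. Uqcr11, another small subunit, had 94.3 and 129.9 CPM in vehicle and 271, 313 and 251 CPM in propyzamide (1.31, adjusted p = 0.0781). Uqcrh, the hinge protein next to cytochrome c1, had 203 and 277 CPM in vehicle and 375, 479 and 468 CPM in propyzamide (0.88, adjusted p = 0.241). In each of these genes the groups were apart, and so were they in the other small subunits Uqcrb and Uqcr10, so that 5 of 5 small subunits lay higher without overlap. The 4 large nuclear subunits behaved less uniformly. The Rieske iron-sulfur protein Uqcrfs1 lay higher without overlap (0.79), cytochrome c1 (Cyc1, 0.44) and the core protein Uqcrc2 (0.47) overlapped, and the other core protein Uqcrc1 had a negative value (-0.53, SE 0.40, adjusted p = 0.534). Uqcrc1, singled out after its values were seen, was measured at 216 and 131 CPM in vehicle and 169, 79.6 and 110.2 CPM in propyzamide, with vehicle replicate 1 the highest.

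Several nuclear subunits of complex IV exist in forms used by heart and skeletal muscle, lung or testis. The part of smooth muscle was not tested with them. The forms found in most tissues made up nearly all of the signal. Per transcript length Cox4i1 was the most abundant nuclear member of all, at 1505 and 816 TPM in vehicle and 1525, 867 and 1326 TPM in propyzamide, followed by Cox5b at 1112 and 674 TPM in vehicle and 1592, 1063 and 961 TPM in propyzamide and Cox8a at 1368 and 769 TPM in vehicle and 1269, 977 and 789 TPM in propyzamide. On that scale vehicle replicate 1 sat inside or above the range of the propyzamide libraries for all 3 genes. Cox4i2, the form known from lung, and Cox8c, known from testis, had 0 counts in every library, where a floor of 3 counts stands for 1.02 to 1.83 CPM and covers counting error only. The skeletal and heart forms Cox6a2 and Cox8b and the testis forms Cox6b2 and Cox7b2 reached at most 2.895 CPM in any library and were not tested, like Ndufa4l2. Cox7a1, the other heart and muscle form, was present at 23.6 and 24.4 CPM in vehicle and 28.2, 43.1 and 22.5 CPM in propyzamide, and its groups overlapped. Of the counts of Cox7a1 and Cox7a2 together, Cox7a1 made up 12.2% and 12.6% in vehicle and 9.58%, 8.78% and 8.204% in propyzamide, lower in all propyzamide libraries on a measure that needs no scaling.

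Of the 20 nuclear entries placed in complex IV, 13 were tested, 12 had positive changes, 10 lay higher without overlap and 0 passed the adjusted test (median 0.71, with 5 at an unadjusted p under 0.05). Ndufa4, which carries a complex I name but is a subunit of complex IV, came closest: it was measured at 110.01 and 83.98 CPM in vehicle and 251, 362 and 245 CPM in propyzamide (log2 fold change 1.56, SE 0.38, adjusted p = 0.0523), with every propyzamide library above both vehicle libraries. Cox6c had 188 and 255 CPM in vehicle and 406, 595 and 406 CPM in propyzamide (1.08, adjusted p = 0.167) and Cox6b1 203 and 209 CPM in vehicle and 392, 396 and 397 CPM in propyzamide (0.94, adjusted p = 0.187). The groups were apart in both, and for Cox6b1 the replicates of a group lay within a few CPM of each other. Cox6a1, Cox7a2, Cox7b, Cox7c, Cox5a and Cox5b lay higher without overlap too, with log2 fold changes from 0.58 to 0.93. Cox7a2l, which joins complexes III and IV into supercomplexes and is not an ordinary subunit, was the exception with a value near 0 (-0.11, SE 0.37) at 119.5 and 82.8 CPM in vehicle and 64.9, 121 and 97.4 CPM in propyzamide.

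The ATP synthase has a catalytic F1 head, made of the alpha (Atp5a1), beta (Atp5b), gamma (Atp5c1), delta (Atp5d) and epsilon (Atp5e) subunits, and a membrane part with the rotating c-ring, joined by a peripheral stalk. The head and the rest, a split drawn up after the values were seen, differed in size of change. The 5 head genes had log2 fold changes from 0.30 to 0.46 and 1 of 5 (Atp5e) lay higher without overlap. Atp5b, the most abundant in TPM, was measured at 631 and 331 CPM in vehicle and 644, 616 and 598 CPM in propyzamide, where vehicle replicate 1 matched the propyzamide libraries. The 11 tested genes of the stalk and membrane part had changes from 0.50 to 1.502 with a median of 0.95. In scaled CPM, 10 of 11 lay higher without overlap, where 16.7% of all genes did so. None passed the adjusted test, and 8 had an unadjusted p under 0.05, against 18.2% of all genes in either direction.

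Among them, Atp5g3, 1 of 3 genes that encode the same mature c subunit, was measured at 145 and 177 CPM in vehicle and 437, 409 and 522 CPM in propyzamide (log2 fold change 1.502, SE 0.38, adjusted p = 0.0571). Atp5k, the e subunit, had 34.3 and 39.2 CPM in vehicle and 90.4, 113 and 80.4 CPM in propyzamide (1.37, adjusted p = 0.0628), and Atp5l, the g subunit, 124 and 141 CPM in vehicle and 264, 390.1 and 321 CPM in propyzamide (1.298, adjusted p = 0.0846). All 3 propyzamide libraries lay above both vehicle libraries in these genes, as they did for the membrane proteolipid Atp5mpl (1.24, adjusted p = 0.0975). The 3 genes of the c subunit did not keep their proportions. Atp5g3 gave 45.9% and 49.4% in vehicle and 52.1%, 63.6% and 62.4% in propyzamide of their summed counts, higher in each propyzamide library, whereas Atp5g1 gave 35.6% and 34.9% in vehicle and 34.9%, 22.3% and 24.3% in propyzamide, with propyzamide replicate 1 at the vehicle level. Atp5g1 and Atp5g2 themselves had log2 fold changes of 0.85 and 0.86. These genes have processed pseudogenes, and how reads were divided among near-identical copies makes their values uncertain. Atp5s, a coupling factor rather than a core subunit, was scarce (7.86 and 6.24 CPM in vehicle and 5.44, 1.03 and 4.26 CPM in propyzamide) and was the 1 member lower without overlap (-0.95, adjusted p = 0.58).

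**Figure D2:**
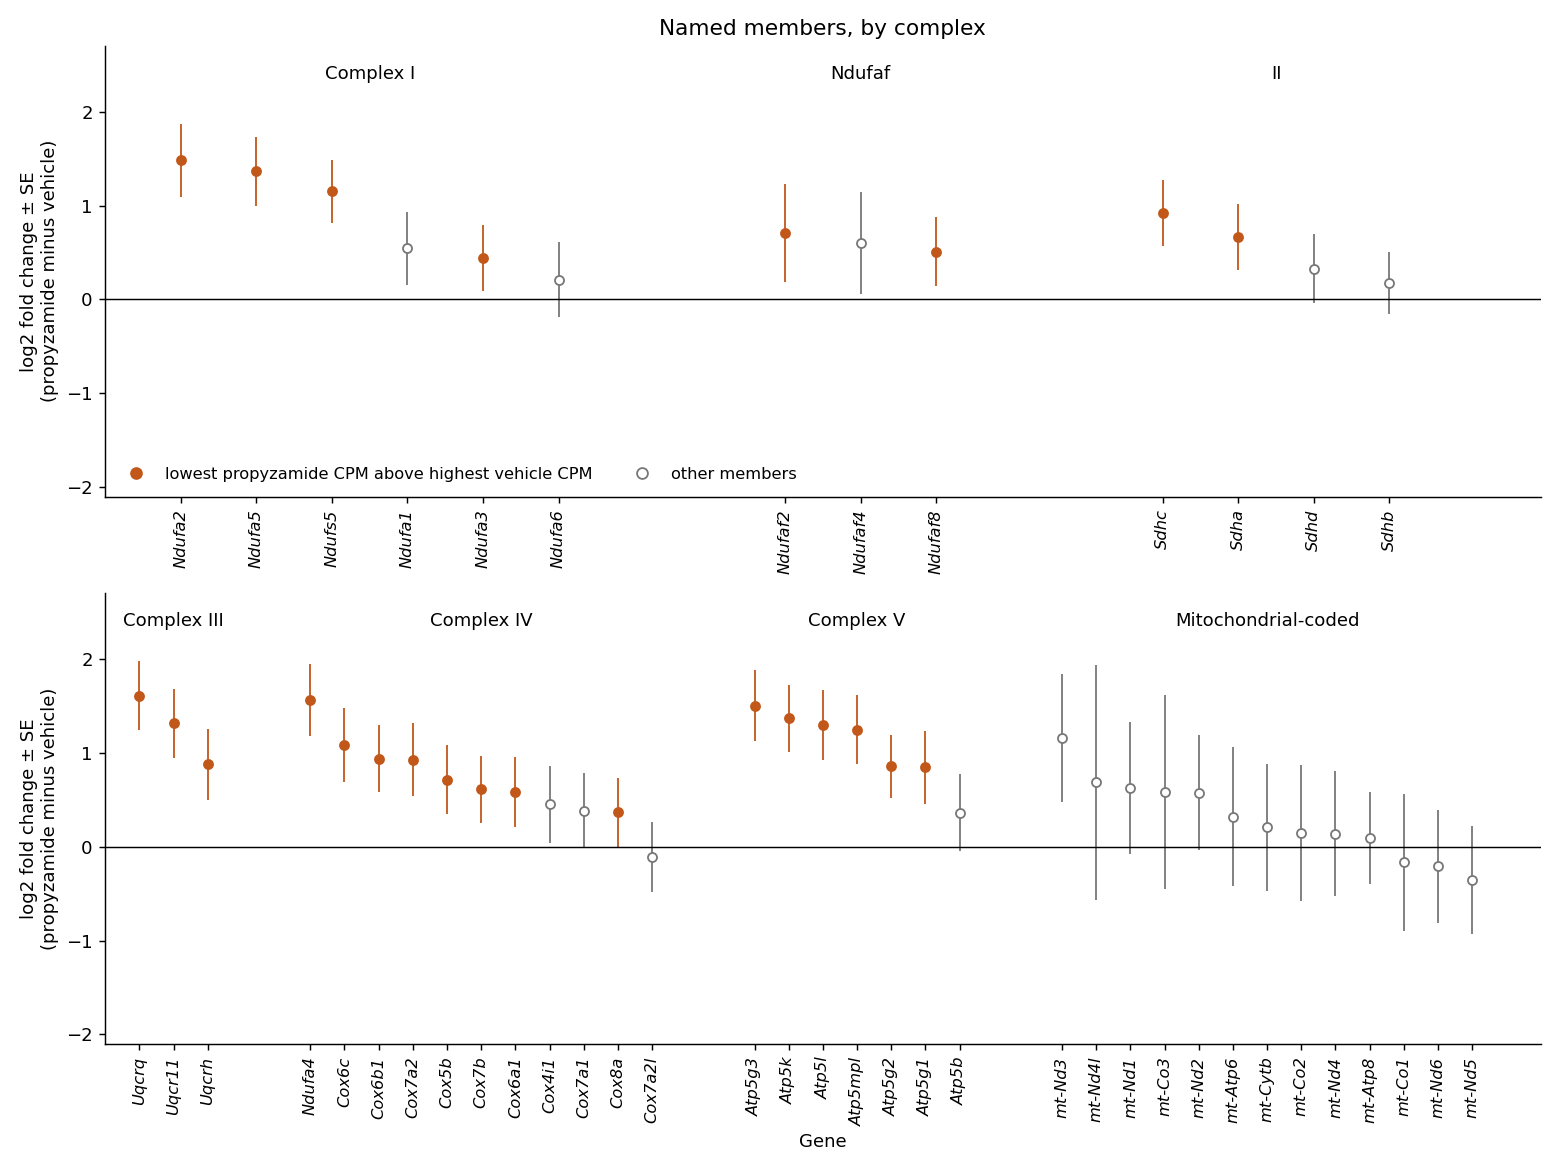
Log2 fold change with its SE (edgeR) for the tested members named by rule, ordered by size within complexes I to V, the Ndufaf factors and the mitochondrial-coded genes; filled points are members whose lowest propyzamide CPM exceeds the highest vehicle CPM. The 34 nuclear members shown run from -0.11 (Cox7a2l) to 1.61 (Uqcrq), and the 13 mitochondrial-coded genes have wider errors around values from -0.36 to 1.16.

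The mitochondrial-coded genes, which hold the rest of complexes I, III, IV and V, were among the most abundant members and varied widely between libraries of a group. Between the vehicle libraries, the 12 with counts in both differed 2.798-fold (mt-Nd1) to 11.1-fold (mt-Co3) in scaled CPM, against at most 2.43-fold for a tested nuclear member. This contrast depends on the scaling. As unscaled shares of a library, the mitochondrial members held 3.26% and 6.11% in vehicle. Nuclear members held 1.47% and 0.737% there, so on that measure both sets differed between the vehicle libraries, in opposite directions. Their 13 changes ran from -0.36 to 1.16 with a median of 0.21, 0 of 13 were separated in either direction and 0 had an unadjusted p under 0.05 (edgeR; 0 of 13 also passed in DESeq2 and limma). Their sum was 21248 and 78268 CPM in vehicle and 32584, 77762 and 58857 CPM in propyzamide, so the vehicle libraries spanned the range of the propyzamide libraries. The sign of the median depended on single libraries. Leaving out vehicle replicate 1 gave -0.46, leaving out vehicle replicate 2 gave 1.6 and leaving out propyzamide replicate 2 gave -0.19. It was -0.01 with limma on log2(TPM + 1). Counts of mitochondrial over nuclear members, a ratio within a library that needs no scaling, were 2.23 and 8.28 in vehicle and 2.18, 4.79 and 3.95 in propyzamide. Vehicle replicate 2 was the highest and vehicle replicate 1 lay next to the lowest.

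By role, mt-Co1, mt-Co2 and mt-Co3 encode the catalytic centre of complex IV, mt-Cytb the cytochrome b of complex III, mt-Atp6 and mt-Atp8 the membrane part of complex V, and mt-Nd1 to mt-Nd6 with mt-Nd4l the proton-pumping arm of complex I. In TPM, mt-Atp6 ranked first with 12879 and 18775 TPM in vehicle and 11000.5, 26586 and 12212 TPM in propyzamide, and mt-Co2 (7421 and 14647 TPM in vehicle and 7143, 15880.2 and 9181 TPM in propyzamide) came next. For mt-Nd1 the values were 7562 and 9569.96 TPM in vehicle and 7541, 15581 and 9627 TPM in propyzamide. In all 3, propyzamide replicate 2 was highest and propyzamide replicate 1 was level with or below the lower vehicle library. Complex III's mt-Cytb, at 3572 and 5919 TPM in vehicle and 3599, 6894 and 3868 TPM in propyzamide, was again highest in propyzamide replicate 2. The changes in the fit on counts were 0.32, 0.14, 0.62 and 0.21, each smaller than its SE. Among genes with counts in every library, mt-Co3 had the widest range, at 242 and 2698 CPM in vehicle and 206, 4478 and 1903 CPM in propyzamide (log2 fold change 0.58, SE 1.03), where the lowest and the highest library were both propyzamide. The mitochondrial gene with the smallest p was mt-Nd3, at 89.7 and 577 CPM in vehicle and 390.5, 1140.02 and 698 CPM in propyzamide (1.16, SE 0.68, adjusted p = 0.404). Here vehicle replicate 1 alone lay under the propyzamide libraries. Values for mt-Nd2 (0.57), mt-Nd4 (0.14), mt-Nd4l (0.69) and mt-Atp8 (0.10) were positive and those for mt-Nd5, mt-Nd6 (-0.21) and mt-Co1 (-0.17) negative.

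Propyzamide replicate 2 differed from the other libraries in the share of some mitochondrial transcripts. There mt-Co1 was 15.2% of the mitochondrial counts, against 28.8% to 31.5% in the other 4 libraries. For mt-Nd5, the longest of these genes, the shares were 6.64% and 5.18% in vehicle and 4.86%, 2.04% and 5.48% in propyzamide, and for mt-Nd6, the one coded on the opposite strand, 0.407% and 0.525% in vehicle and 0.394%, 0.187% and 0.629% in propyzamide. All 3 shares were lowest in propyzamide replicate 2. No test of a single library was made with groups of this size.

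Neighbouring mitochondrial genes overlap, and the overlaps limit what a count can say. The last 60 bases of mt-Nd4l and mt-Atp8 are shown because of the bases in capitals, which also belong to the gene that follows (7 bases shared with mt-Nd4 and 43 with mt-Atp6). They are printed 5′ to 3′ on the plus strand of GRCm38 from the GENCODE M21 transcripts, at chrM:10114-10173 and chrM:7910-7969. Both genes of a pair are known to share a messenger RNA.
mt-Nd4l: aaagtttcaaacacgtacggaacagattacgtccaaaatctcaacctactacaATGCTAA
mt-Atp8: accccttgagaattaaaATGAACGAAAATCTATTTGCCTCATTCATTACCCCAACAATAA
The short mt-Nd4l had 0 and 23.8 CPM in vehicle and 27.9, 0 and 27.4 CPM in propyzamide, with no count in 1 library of each group although mt-Nd4 held 1109 and 4798 CPM in vehicle and 1696, 4606 and 3443 CPM in propyzamide. A count of 0 allows up to the floor of 3 counts given above. Which gene of a pair a read of the shared bases was given to cannot be read from the files, and the strand setting of the counting, which bears on mt-Nd6, is not given in the sources used here.

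**Figure D3:**
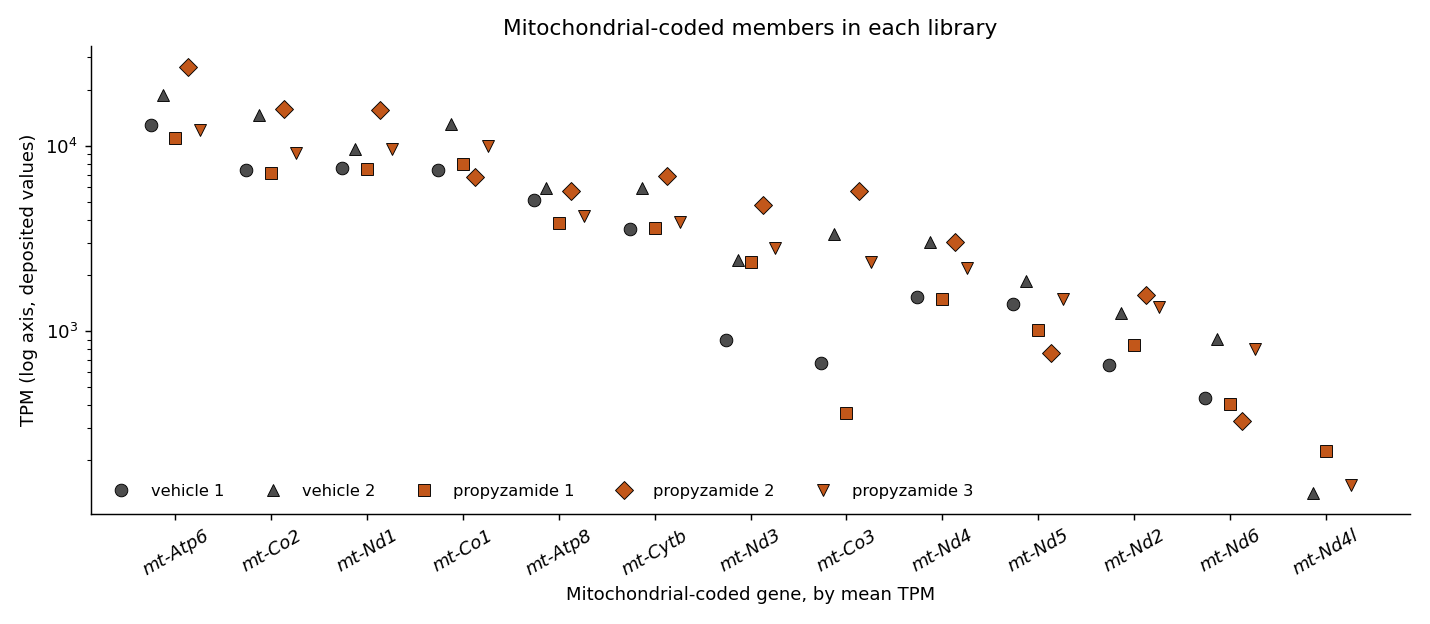
Deposited TPM of the 13 mitochondrial-coded genes in each library on a log axis, genes ordered by their mean; mt-Nd4l is listed at 0 in vehicle replicate 1 and propyzamide replicate 2 and has no point there. Vehicle and propyzamide points interleave for every gene, and mt-Co3 ranges from 362 to 5738 TPM within propyzamide.

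In complex III the small subunits had a larger median change than the large ones, 0.88 against 0.46. In complex V the stalk and membrane part had a larger median change than the F1 head, 0.95 against 0.36. In complex III the 2 ranges overlapped, since Uqcrfs1 among the large subunits (0.79) lay above the lowest small subunit (0.66). This grouping was drawn up after the values were seen and is given without a test. Within complex V, counts of the stalk and membrane part over counts of the F1 head were 0.803 and 1.34 in vehicle and 1.46, 1.81 and 1.502 in propyzamide, and in summed TPM 1.8 and 2.11 in vehicle and 2.66, 2.7 and 2.86 in propyzamide. On both units all propyzamide libraries lay above both vehicle libraries, and these ratios within a library need no scaling. Within complex III, small over large subunits gave 1.12 and 2.18 in vehicle and 2.04, 3.33 and 2.59 in propyzamide by counts, where vehicle replicate 2 reached into the propyzamide range, and 4.98 and 8.37 in vehicle and 8.73, 12.96 and 10.4 in propyzamide by TPM, where the groups were apart. Accessory over nuclear-coded core subunits of complex I gave 3.32 and 5.25 in vehicle and 4.197, 5.39 and 4.32 in propyzamide by counts, which overlapped.

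**Figure D4:**
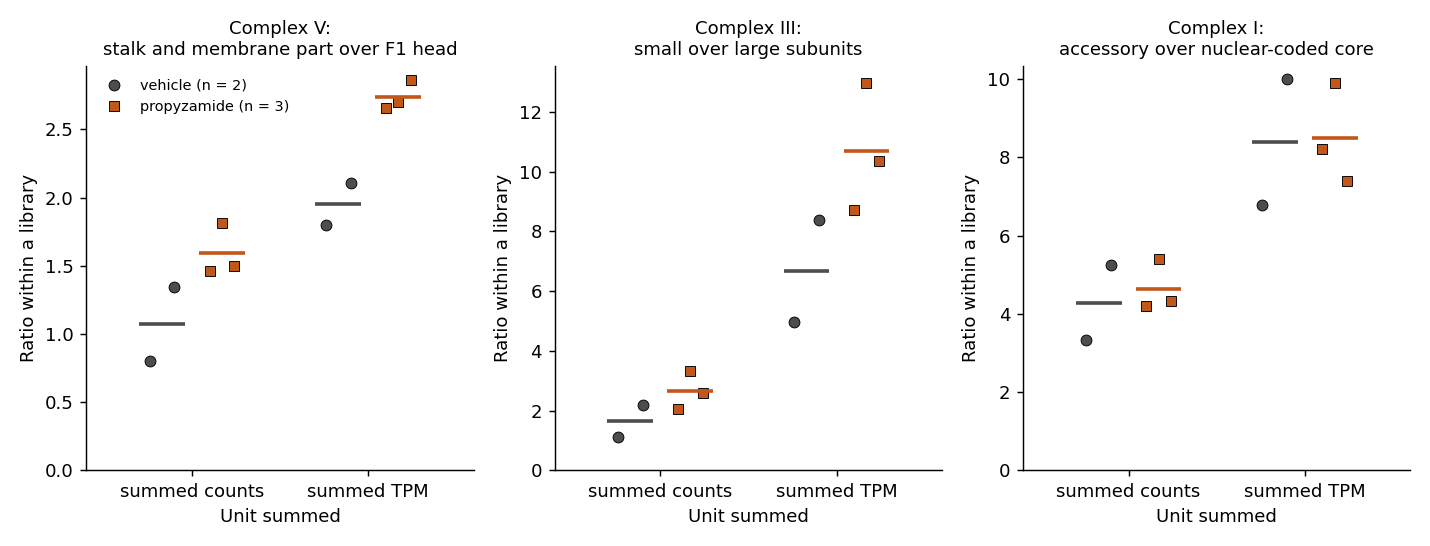
Ratios of summed counts and of summed TPM between structural parts of complexes V, III and I in each library, with lines at the group means. The propyzamide points lie above the vehicle points for complex V on both units and for complex III in TPM, while those of complex I overlap.

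These parts also differ in transcript length. The median length, weighted by counts, was 680.05 bases for the stalk and membrane part against 1157 for the F1 head, and 535 against 1551 bases for small and large subunits of complex III. Over the 87 nuclear members tested, the log2 fold change was lower at greater log2 length (Pearson's r -0.418, Spearman's rho -0.432), a description across genes that share the same 5 libraries. Over all 12024 genes the same measures were -0.157 and -0.118. Of nuclear members under 1000 bases, 60 of 60 had positive changes with a median of 0.71, and of those from 1000 bases on 23 of 27 did with a median of 0.44. Among all genes, 718 of 1011 short genes were positive (median 0.36) and 5187 of 11013 longer ones (median -0.06). Short transcripts of nuclear protein-coding genes outside the set, 715 of 11124, took 14.4% and 13.6% of those genes' counts in vehicle and 15.9%, 17.4% and 17.8% in propyzamide. The share of short transcripts was thus higher in every propyzamide library, and its part in the members' changes was not tested.

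**Figure D5:**
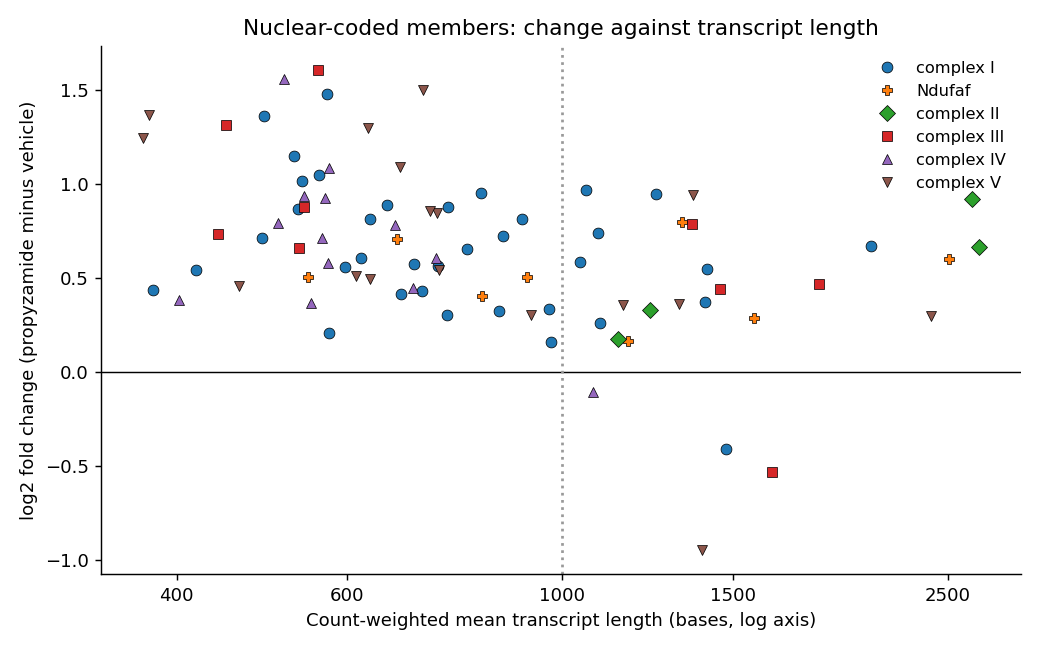
Log2 fold change of each of the 87 tested nuclear members against its count-weighted mean transcript length in bases on a log axis, by complex; the dotted line marks 1000 bases. All 60 members to the left of the line are positive, and the 4 negative values lie to its right.

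Since many nuclear members stood higher together, their promoters are shown for the 5 tested members of smallest p that have a single entry in the RefSeq promoter table (GRCm38.p6): Ndufa4 at chr6:11907451-11907700, Atp5g3 at chr2:73911327-73911576, Atp5k at chr5:108434400-108434649, Uqcr11 at chr10:80406822-80407071 and Atp5l at chr9:44920743-44920992, all on the minus strand. Each is the 250 bases before the transcription start, 5′ to 3′, and capitals mark matches to motifs of factors known to bind such promoters, on either strand.
Ndufa4: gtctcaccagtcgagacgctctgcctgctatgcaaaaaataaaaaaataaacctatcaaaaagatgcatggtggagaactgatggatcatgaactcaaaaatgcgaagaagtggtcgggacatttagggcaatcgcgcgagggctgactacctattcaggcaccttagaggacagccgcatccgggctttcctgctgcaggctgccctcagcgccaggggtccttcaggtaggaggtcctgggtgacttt
Atp5g3: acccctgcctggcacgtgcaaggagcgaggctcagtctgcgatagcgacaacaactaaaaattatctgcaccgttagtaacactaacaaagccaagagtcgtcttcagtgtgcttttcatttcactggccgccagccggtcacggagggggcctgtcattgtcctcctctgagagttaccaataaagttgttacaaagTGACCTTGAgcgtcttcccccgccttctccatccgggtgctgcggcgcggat
Atp5k: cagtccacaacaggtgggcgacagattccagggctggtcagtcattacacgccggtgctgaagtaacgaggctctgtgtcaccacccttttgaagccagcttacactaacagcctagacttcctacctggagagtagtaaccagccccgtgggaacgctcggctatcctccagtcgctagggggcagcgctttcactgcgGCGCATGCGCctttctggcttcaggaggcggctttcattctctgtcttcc
Uqcr11: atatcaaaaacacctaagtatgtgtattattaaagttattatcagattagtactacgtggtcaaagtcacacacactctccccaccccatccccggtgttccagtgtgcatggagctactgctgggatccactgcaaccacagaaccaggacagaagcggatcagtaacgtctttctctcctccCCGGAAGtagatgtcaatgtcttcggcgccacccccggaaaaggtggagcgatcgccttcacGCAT
Atp5l: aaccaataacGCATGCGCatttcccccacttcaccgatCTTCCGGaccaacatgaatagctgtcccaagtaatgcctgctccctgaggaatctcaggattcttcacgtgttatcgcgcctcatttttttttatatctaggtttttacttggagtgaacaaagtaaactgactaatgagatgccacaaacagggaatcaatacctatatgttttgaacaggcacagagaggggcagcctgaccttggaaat
The motifs searched were GCATGCGC (a half-site of nuclear respiratory factor 1, which can match both strands at once), CCGGAAG (the core of ETS factors such as GABP), AAGATGGCG (YY1) and TCAAGGTCA (oestrogen-related receptors), each as exact letters. In these 5 windows of 250 bases the capitals are an ERR match in Atp5g3, a pair of overlapping NRF1 half-sites in Atp5k, an ETS match and the first letters of an NRF1 half-site that runs past the start in Uqcr11, and an NRF1 half-site and an ETS match in Atp5l, and Ndufa4 has none.

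Of 94 nuclear symbols, 76 matched the table with 81 promoter windows of 300 bases (250 before the start to 50 after). NRF1 half-sites were in 14.8% of these against 2.712% of all 32851 windows, ETS in 22.2% against 8.86%, YY1 in 9.88% against 1.403% and ERR in 2.47% against 0.423%. The median GC content was 58.3% in member windows and 52.7% in all. The 12 tested members with an NRF1 half-site had a median log2 fold change of 0.59 and the 61 without it 0.61, and for ETS the medians were 0.62 over 18 and 0.61 over 55. With YY1 it was 0.56 over 8 and without it 0.61, and with ERR 0.92 over 2 and without it 0.61. A match is a description of the letters, not a site of binding.

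Lists of genes around the chain had smaller medians than the nuclear members. Of 21 electron carriers and exchangers, 20 were tested and 1 rose: Slc25a4, the adenine nucleotide translocator of heart and muscle that swaps ADP for ATP across the inner membrane. It was measured at 19.9 and 56.2 CPM in vehicle and 109, 215 and 259 CPM in propyzamide (log2 fold change 2.36, SE 0.53, adjusted p = 0.0443), and the groups did not overlap. The call was lost in 8 of 18 other fits, among them the fits without vehicle replicate 1 (adjusted p = 0.366), vehicle replicate 2 (0.0612), propyzamide replicate 2 (0.0678) and propyzamide replicate 3 (0.108). Its level moved with the smooth muscle markers given above, whose part was not tested. Cytochrome c (Cycs) had 63.7 and 59.01 CPM in vehicle and 139, 142 and 125 CPM in propyzamide (log2 fold change 1.14, SE 0.34, adjusted p = 0.0975), and the electron-transfer flavoprotein Etfb a log2 fold change of 0.83 (adjusted p = 0.23). Positive changes numbered 15 of 20 in this list, with a median of 0.31.

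Of 37 assembly factors outside the symbol rule, 36 were tested, 0 rose, 0 fell and 23 were positive (median 0.22). Uqcc2, which helps to make cytochrome b, had 16.96 and 15.3 CPM in vehicle and 43.5, 51.8 and 37.1 CPM in propyzamide (log2 fold change 1.45, SE 0.38, adjusted p = 0.0643), and Cox14 0.85, whereas Foxred1, a factor of complex I, had 22.7 and 20.99 CPM in vehicle and 11.9, 3.59 and 5.48 CPM in propyzamide (-1.59, adjusted p = 0.144). Mitochondrial ribosomal proteins, which translate the 13 mitochondrial-coded members, gave 45 positive values of 78 with a median of 0.19 and 0 calls, and Mrpl20 (1.49), Mrpl12 (1.23) and Mrpl9 (-0.99) had the smallest p. Regulators of mitochondrial DNA expression and biogenesis gave 7 positive values of 19 with a median of -0.14 and 0 calls. The mitochondrial RNA polymerase Polrmt had 9.93 and 11.9 CPM in vehicle and 3.74, 2.57 and 2.44 CPM in propyzamide (-1.86, adjusted p = 0.158), and the coactivator Ppargc1a 39.3 and 49.9 CPM in vehicle and 22.1, 32.9 and 16.4 CPM in propyzamide (-0.90, adjusted p = 0.242). Both regulators were thus listed lower in every propyzamide library on this scale, while Lrpprc, which stabilises mitochondrial messenger RNA, had a change of 1.12.

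The citric acid cycle had 14 positive values of 16 with a median of 0.20, and glycolysis 14 of 16 with a median of 0.23, with 0 calls in either. Dld (1.12), Sucla2 (0.74) and Idh3b (-0.53) had the smallest p in the cycle, and Pgk1 (0.79), Ldhb (1.46) and Ldha (0.75) in glycolysis. In the 5 lists without a call, edgeR gave 5, 4, 4, 1 and 1 genes with an unadjusted p under 0.05 (assembly factors, ribosomal proteins, regulators, cycle and glycolysis). These were out of 36, 78, 19, 16 and 16 tested, where 18.2% of all genes had such a p. DESeq2 called 1, 2, 0, 0 and 0, all higher, where it called 2.16% of all genes higher and 2.54% lower, and limma called 0 in each. The medians of the 6 lists all lay below that of the nuclear members (0.61), a difference that was not tested. Their sign depends on the scaling: without scaling factors all 6 were negative, from -0.53 to -0.16, and with limma on log2(TPM + 1) from -0.36 to -0.11, while the nuclear members kept positive medians on both.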

How the data were processed

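Colon RNA was made into SMART-Seq2 libraries from Trizol extracts, per the labels' protocols. The deposited tables list 142647 transcripts with expected counts and TPM (length-normalised abundance), estimated by RSEM's model per the file headers; the submitters' processing notes name RSEM, kallisto and GRCm38, without versions or roles. Both units were summed per gene. Gene names and positions came from GENCODE M21, which holds 55230 of 55471 genes (99.6%), and 1 table maps to each library.

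Summed expected counts, as deposited by the authors, were rounded and fitted for all genes with edgeR 4.0.16 (filterByExpr, TMM, quasi-likelihood test, Benjamini-Hochberg, threshold 0.05) in R 4.3.3. The fit was checked on simulated data, where it recovered 5.36% of 2-fold, 52.5% of 4-fold and 88.9% of 8-fold changes. A member that was not called may thus still differ by 2-fold. Alternatives used DESeq2 1.42.0, limma 3.58.1 on log2 of the deposited TPM with a pseudocount of 1 or 0.1, other scalings and filters, removal of ribosomal-RNA-like loci or mitochondrial genes, subtraction of receptor background, a replicate block and leaving out each library. CPM are TMM-scaled. Levels between genes were compared in TPM.

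Named members are the 13 mitochondrial genes, Sdha to Sdhd, the 3 of highest TPM and the 3 of smallest p in each other complex, the 3 Ndufaf factors of smallest p, members past the threshold and tissue-specific or paralogous forms; in pathway lists, the 3 of smallest p. Members and lists were chosen with earlier results of these data known, and structural classes after values were seen. Sequences of promoters are RefSeq's (GRCm38.p6). Libraries differed from each other by more than sampling noise, so none was a duplicate. One gene is not reported here by name.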

Additional observations from a re-analysis of the deposited data

How the results depend on the processing

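Median log2 fold changes of the nuclear members and of each complex stayed positive in all 18 other fits, while their size followed the scaling. With upper-quartile factors they were 0.46 for all members, 0.48 for nuclear members, 0.50 for complex I and 0.61 for complex III. Without scaling factors they were 0.21 for all members, 0.22 for nuclear members, 0.22 for complex I, 0.0371 for complex II, 0.36 for complex III, 0.42 for complex IV, 0.20 for complex V and 0.0685 for Ndufaf factors. Without a filter on low counts they were 0.70 for all members, 0.73 for nuclear members, 0.76 for complex I and 0.86 for complex III. In that fit the median of all genes was -1.14, against -0.02 in the main fit. With a filter of 10 CPM in 2 libraries they were 0.50 for all members, 0.55 for nuclear members, 0.53 for complex I and 0.63 for complex III. With limma on log2(TPM + 1) they were 0.23 for all members, 0.27 for nuclear members, -0.00611 for mitochondrial members, 0.32 for complex I, 0.0344 for complex II, 0.29 for complex III, 0.32 for complex IV, 0.35 for complex V and 0.13 for Ndufaf factors. With limma on log2(TPM + 0.1) they were 0.24 for all members, 0.28 for nuclear members, -0.00612 for mitochondrial members, 0.33 for complex I, 0.0376 for complex II, 0.29 for complex III, 0.32 for complex IV, 0.35 for complex V and 0.0777 for Ndufaf factors. With background subtracted they were 0.48 for all members, 0.54 for nuclear members, 0.51 for complex I and 0.61 for complex III.

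Leaving out 1 library at a time moved the medians from 0.55 to 0.73 for all members, from 0.58 to 0.73 for nuclear members, from -0.46 to 1.6 for mitochondrial members, from 0.58 to 0.73 for complex I, from 0.31 to 0.79 for complex II, from 0.61 to 0.87 for complex III, from 0.54 to 0.94 for complex IV, from 0.51 to 0.87 for complex V and from 0.36 to 0.79 for Ndufaf factors. The sign of the mitochondrial median turned without vehicle replicate 1 (-0.46) and without propyzamide replicate 2 (-0.19). The mitochondrial over nuclear count ratio, propyzamide over vehicle, was 0.692 and lay between 0.439 (without vehicle replicate 1) and 1.63 (without vehicle replicate 2). In summed TPM the share of complex III, propyzamide over vehicle, was 1.115 against 1.06 in counts, and that of complex II, within its spread, 0.754 against 0.879. For complexes I, IV and V the same ratios were 0.957, 0.957 and 1.063 in TPM, against 0.980, 1.003 and 1.006 in counts. Upward separation of nuclear members, an added comparison of scalings chosen after the data were seen, fell from 56 to 19 without factors and 14 in TPM, and was 53 to 59 with the others.

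Members called numbered 1 with TMM, 0 with DESeq2's size factors in edgeR, with upper-quartile factors, without factors, with the 10 CPM filter, with either limma fit and with background subtracted, 2 with ribosomal-RNA-like loci and mitochondrial genes removed, 9 without a filter, 9 in DESeq2 and 10 at an adjusted p under 0.1. Every fit that left out 1 library gave 0. Over all genes the 229 calls became 571 without factors, 1323 without a filter, 148 at 10 CPM, 565 in DESeq2, 490 with limma on log2(TPM + 1), 362 with the loci and mitochondrial genes removed, 106 with background subtracted and 657 at an adjusted p under 0.1, and 36 (without vehicle replicate 1) to 499 (without propyzamide replicate 1) with 1 library left out. Of single nuclear members named, 7 of 34 changed sign under at least 1 of the other settings (16 of 442 values) and 2 when a library was left out (4 of 170), and of mitochondrial members 5 of 13 (14 of 156) and 11 of 13 (18 of 65). The causes were not tested.

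Replicate numbers in the titles do not pair the samples by any label. Deviations from the group means correlated at 0.17 (number 1) and 0.147 (number 2) over genes, with only 2 pairs. With 2 vehicle libraries, the deviations of one are the negatives of the other's, so these 2 values are not independent. With the replicate number as a block, 639 genes and 8 members passed, and the medians were 0.65 for nuclear members and 0.70 for complex V. Depth limits the scarce members: 1 count was worth 0.3399 to 0.609 CPM.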

Other observations

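Some proteins of the respiratory chain fall outside the symbol rule, and they were picked after values were seen. Higd1a, a small inner-membrane protein known to respond to low oxygen and to bind complex IV, was measured at 60.8 and 128 CPM in vehicle and 362, 639.6 and 484 CPM in propyzamide and rose (log2 fold change 2.396, SE 0.47, adjusted p = 0.0279, edgeR). All propyzamide libraries lay above both vehicle libraries. The call was lost without vehicle replicate 1 (adjusted p = 0.293), vehicle replicate 2 (0.0506) and propyzamide replicate 3 (0.0735), and held in 12 of 18 other fits. Usmg5, a small subunit of the ATP synthase membrane part under another name, had 74.9 and 103 CPM in vehicle and 162, 241 and 147 CPM in propyzamide (log2 fold change 1.05, adjusted p = 0.164), and the ATP synthase inhibitor Atpif1 125 and 106 CPM in vehicle and 232, 178 and 254 CPM in propyzamide (log2 fold change 0.94, adjusted p = 0.184). Ndufb1-ps, annotated as a non-coding RNA and so left out by the rule, had 40.1 and 52.8 CPM in vehicle and 80.9, 122 and 80.4 CPM in propyzamide (log2 fold change 1.02, adjusted p = 0.163). None of these 3 passed the test, and in each the groups did not overlap.

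The larger mitochondrial ribosomal RNA, mt-Rnr2, which is cut from the same precursor as most mitochondrial members, was measured at 43435 and 170278 CPM in vehicle and 57652, 186435 and 103941 CPM in propyzamide. On this scale vehicle replicate 1, which was scaled the most, was the lowest of the 5 libraries.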
